A study of Mus musculus with 8 samples.

Results

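The 54 genes described here drive or mark the cell division cycle and DNA replication, and were chosen by name from the 25017 named entries of the deposited expression table. They were divided by role into 14 genes of G1 control, 18 genes of S phase and 22 genes of G2 and mitosis. The cells were dendritic cells grown from C57BL/6 mouse bone marrow with the cytokines GM-CSF (20 ng/ml) and IL-4 (10 ng/ml). All cells carried the RelB-DBDB genotype, which refers to RelB, a subunit of the transcription factor NF-κB. What DBDB stands for is not spelled out in the labels. In the second genotype, IFNAR;RelB-DBDB, the type I interferon receptor IFNAR was also knocked out, per the series' design text. IFNAR;RelB-DBDB is called the IFNAR knockout below, and RelB-DBDB by its own name. Each genotype had 4 libraries, 1 per condition. The conditions were a control with a 1 h label and exposure for 1, 3 or 8 h to the CpG oligonucleotide ODN 1668 at 0.1 µM, an unmethylated DNA that activates the receptor TLR9. No control was labelled 3 or 8 h, so the effects of CpG and of longer culture at those times cannot be told apart. The labels do not say whether a library came from 1 mouse or from several, or whether libraries came from separate cultures. P-values therefore measure only the spread between these 8 libraries. For genotype and for CpG, that spread is how far the genotype difference varied between conditions, so a genotype difference in the CpG response adds to it. An effect of mouse or culture shared by the libraries of a genotype cannot be told apart from the genotype. All values below are in the order control, 1 h, 3 h and 8 h, and CPM is the reads of a gene scaled to the total of its library.

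A dividing cell passes from G1, where D-type and E-type cyclins with their kinases release E2F factors from the retinoblastoma protein, into S phase, where E2F target genes copy the genome. In G2 and mitosis another set of genes, held down in resting cells by the DREAM complex through CHR promoter elements and activated with the help of NF-Y at CCAAT boxes, builds the spindle and separates the chromosomes. In GM-CSF cultures of bone marrow, precursors divide for several days, and mature dendritic cells leave the cycle.

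The libraries held 3711818 to 37221530 reads, and 3 reads, the limit that a count of 0 allows, were worth 0.0806 to 0.808 CPM. Both extremes were 8 h libraries, the shallowest that of the IFNAR knockout and the deepest that of RelB-DBDB. Low values in the 8 h library of the IFNAR knockout therefore rest on few reads. The 8 h library of RelB-DBDB stood apart, with 6.26% of its reads from mitochondrial genes against 1.74% to 2.41% in the other libraries. Ifnar1, a chain of the receptor, was at 127, 123, 102 and 125 CPM in the RelB-DBDB cells and at 86.3, 102, 56.1 and 68.2 CPM in the IFNAR knockout. Reads of Ifnar1 were thus present in every library labelled the IFNAR knockout, and since the labels do not say which exons were deleted, its level does not check the label. Of the 12 dendritic cell markers listed, 11 were above 1 CPM in at least 1 RelB-DBDB library and 12 in at least 1 library of the IFNAR knockout, with Cd209a under 1 CPM throughout RelB-DBDB.

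The promoters of S phase and mitotic genes are shown first because they hold different elements. RefSeq promoters on GRCm38.p6, each holding the 250 bases before and 50 bases after a start site, were found for 41 of the 54 genes and for 27025 genes in all. They were searched on both strands for E2F words (TTTCCCGC, TTTGGCGC, TTTCGCGC and TTTGCCGC), for the CHR word TTTGAA and for CCAAT. An E2F word stood in 7 of 14 S phase promoters, 1 of 17 G2 and mitosis promoters, 2 of 10 G1 promoters and 2.60% of all genes. The CHR word had the opposite spread, in 2 of 14 S phase promoters, 12 of 17 G2 and mitosis promoters, 1 of 10 G1 promoters and 20.2% of all genes. CCAAT was frequent in both classes, in 10 of 14 S phase and 15 of 17 G2 and mitosis promoters, against 41.1% of all genes. A word in a promoter is a description of its letters and not a bound site. The sequences below belong to the S phase genes with an E2F word and the mitotic genes with a CHR word that had the smallest adjusted p for genotype, and to E2f2, whose level fell most after CpG. They lie at chr17:56304063-56304362 (plus strand) for Uhrf1, chr8:75109259-75109558 (plus strand) for Mcm5, chr11:99024140-99024439 (minus strand) for Top2a, chr7:122159185-122159484 (plus strand) for Plk1 and chr4:136172024-136172323 (plus strand) for E2f2. Uhrf1 and E2f2 each have 2 start sites in the table, and the window with the most E2F words is shown. E2f2 is the G1 gene counted with the CHR word, which is not in the window shown, so its count took in more than this window. Capitals mark matches to any of these words on either strand, so ATTGG is CCAAT and TTCAAA is TTTGAA read on the other strand. The pair of E2F words in Mcm5 overlap.

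Uhrf1: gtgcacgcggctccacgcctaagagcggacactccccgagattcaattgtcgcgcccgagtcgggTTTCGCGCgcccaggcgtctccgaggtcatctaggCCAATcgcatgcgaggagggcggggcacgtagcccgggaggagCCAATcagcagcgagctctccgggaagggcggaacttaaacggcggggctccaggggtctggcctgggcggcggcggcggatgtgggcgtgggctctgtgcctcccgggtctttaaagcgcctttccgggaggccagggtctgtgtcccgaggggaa

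Mcm5: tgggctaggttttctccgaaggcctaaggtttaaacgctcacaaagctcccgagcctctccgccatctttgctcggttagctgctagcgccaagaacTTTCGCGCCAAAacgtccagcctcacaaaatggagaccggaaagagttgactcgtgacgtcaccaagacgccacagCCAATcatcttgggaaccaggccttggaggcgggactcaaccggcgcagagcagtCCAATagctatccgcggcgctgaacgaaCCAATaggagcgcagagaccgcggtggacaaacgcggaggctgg

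Top2a: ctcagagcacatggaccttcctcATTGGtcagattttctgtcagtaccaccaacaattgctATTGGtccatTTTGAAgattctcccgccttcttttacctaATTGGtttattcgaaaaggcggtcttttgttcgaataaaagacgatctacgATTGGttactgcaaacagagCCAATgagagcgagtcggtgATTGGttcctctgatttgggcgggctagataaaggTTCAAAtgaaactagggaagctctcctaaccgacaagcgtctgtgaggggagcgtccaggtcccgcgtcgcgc

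Plk1: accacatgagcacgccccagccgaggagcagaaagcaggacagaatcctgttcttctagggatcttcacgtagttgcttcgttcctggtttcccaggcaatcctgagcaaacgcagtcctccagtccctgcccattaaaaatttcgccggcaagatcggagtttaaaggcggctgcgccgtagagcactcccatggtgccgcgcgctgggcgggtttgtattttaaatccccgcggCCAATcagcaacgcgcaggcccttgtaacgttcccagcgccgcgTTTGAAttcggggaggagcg

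E2f2: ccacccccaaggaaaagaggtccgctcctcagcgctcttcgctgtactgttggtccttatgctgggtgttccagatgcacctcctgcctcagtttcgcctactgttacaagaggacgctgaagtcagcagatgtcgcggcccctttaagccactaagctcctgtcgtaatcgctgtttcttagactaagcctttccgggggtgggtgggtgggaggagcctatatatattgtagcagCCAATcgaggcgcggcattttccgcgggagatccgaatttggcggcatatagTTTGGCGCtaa

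The first comparison sets the IFNAR knockout against RelB-DBDB over the 4 conditions. Replication and mitosis genes were higher in the cultures that also lacked the interferon receptor, and mitosis genes differed most. Of the 54 genes, 36 were called, all higher in the IFNAR knockout, in limma's test of log2(CPM + 1) at an adjusted p of 0.05, against 6.25% called, 4.59% higher and 1.66% lower among all 12297 genes tested. They were 18 of 22 genes of G2 and mitosis, 15 of 18 genes of S phase and 3 of 14 genes of G1 control. The median log2 difference was 1.32 for G2 and mitosis, 0.91 for S phase and 0.39 for G1 control, against 0.11 for all genes tested. The IFNAR knockout was higher in all 4 conditions for 22 of 22 G2 and mitosis genes, 17 of 18 S phase genes and 9 of 14 G1 genes, against 25.9% of all genes tested. The lowest IFNAR knockout library lay above the highest RelB-DBDB library for 18, 13 and 4 of these genes in turn, against 7.98% of all genes tested. All 54 genes passed the filter of 1 CPM in 2 libraries. In RNA from whole cultures, fewer dividing cells and less of these RNAs per cell cannot be told apart.

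**Figure D1:**
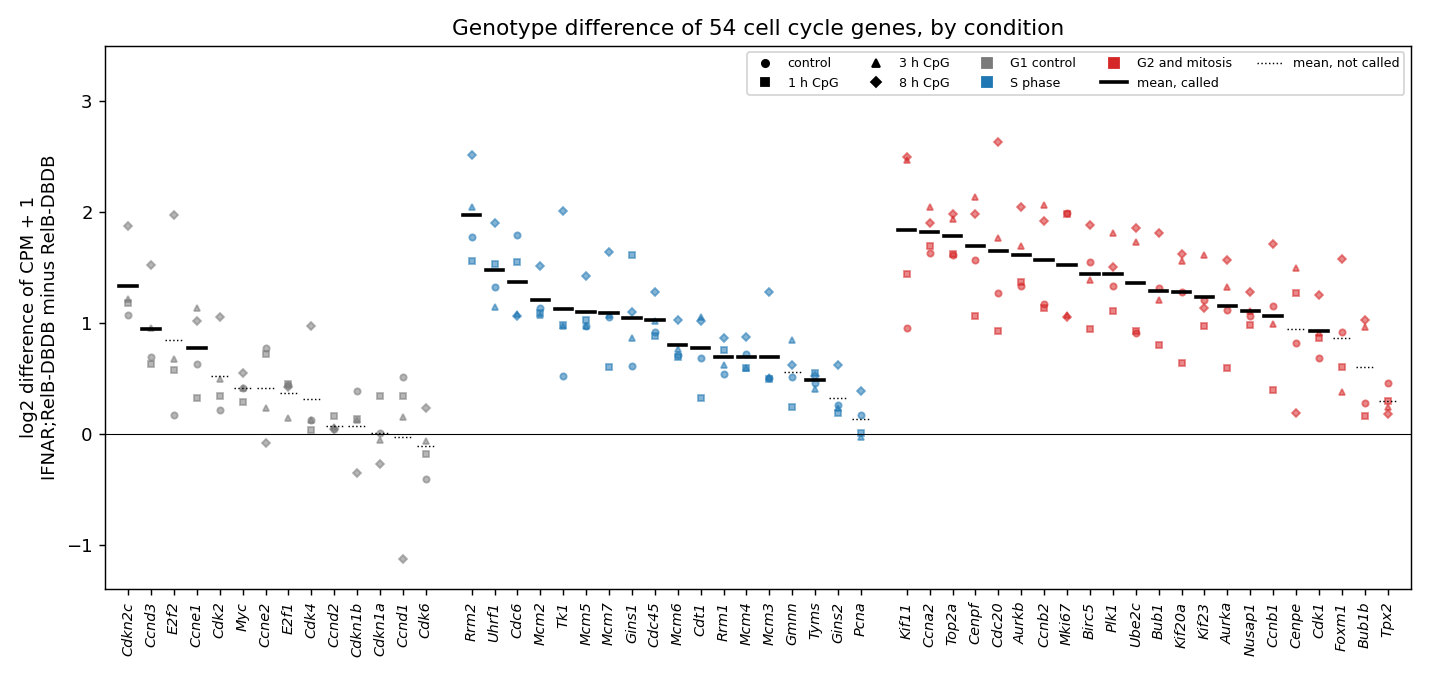
Each point is the log2 difference of CPM + 1 (IFNAR;RelB-DBDB minus RelB-DBDB) of 1 gene in 1 condition, with the shape for the condition and the colour for the gene group, and the short line is the mean over the 4 conditions, solid for the 36 genes called and dotted for the others. All points of the 22 G2 and mitosis genes lie above 0, and the G1 control genes spread across 0.

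Among the genes of G1 control, the D-type cyclins parted ways. Ccnd2, which with Cdk4 or Cdk6 starts the release of E2F, was at 1009.7, 1065, 1726 and 2990.3 CPM in the RelB-DBDB libraries and 1039.8, 1187, 1796 and 3075 CPM in the IFNAR knockout. The genotypes were close in every condition, and the log2 difference was 0.07 ± 0.09, adjusted p = 0.642. Ccnd3, a D cyclin of blood cells, was at 60.2, 57.95, 36.2 and 21.8 CPM in the RelB-DBDB libraries and 97.8, 90.2, 71.01 and 64.7 CPM in the IFNAR knockout. Every IFNAR knockout library lay above every RelB-DBDB library for Ccnd3 (log2 difference 0.95 ± 0.16, adjusted p = 0.0192). The remaining D cyclin, Ccnd1, was at 29.96, 27.9, 24.3 and 46.5 CPM in the RelB-DBDB libraries and 43.1, 35.6, 27.1 and 20.7 CPM in the IFNAR knockout. Ccnd1 was higher in the IFNAR knockout in control, at 1 h and at 3 h and lower at 8 h, with a log2 difference of -0.03 ± 0.26, adjusted p = 0.952. Without either 8 h library the difference was 0.33. Per kilobase of exon, mean levels over the 8 libraries were 185 CPM for Ccnd2, 7.12 CPM for Ccnd3 and 6.77 CPM for Ccnd1, so Ccnd2 was the most abundant D cyclin, next to Cdkn1a at 182 CPM. Of the exon bases of Ccnd1, 23.4% are shared with LTO1 on the other strand, and whether counting used strand is not given in the sources used here.

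None of the kinases Cdk4, Cdk6 and Cdk2 was called by genotype. Cdk4 was at 77.03, 79.4, 57.6 and 32.9 CPM in the RelB-DBDB libraries and 84.1, 81.1, 62.8 and 65.5 CPM in the IFNAR knockout. The control, 1 h and 3 h values nearly coincided, the 8 h values did not, and the log2 difference was 0.31 ± 0.17, adjusted p = 0.327. Cdk6 was at 194, 216, 322 and 234 CPM in the RelB-DBDB libraries and 146, 190.4, 307 and 274 CPM in the IFNAR knockout. Which genotype was higher changed at 8 h, with a log2 difference of -0.11 ± 0.12, adjusted p = 0.618. Cdk2, the kinase of the E cyclins, was at 42.2, 37.3, 28.8 and 17.7 CPM in the RelB-DBDB libraries and 49.3, 47.5, 40.97 and 37.7 CPM in the IFNAR knockout. It was higher in the IFNAR knockout within each condition, and the groups overlapped across conditions (log2 difference 0.53 ± 0.16, adjusted p = 0.110). Ccne1, an E cyclin, was at 13.7, 13.96, 7.18 and 11.04 CPM in the RelB-DBDB libraries and 21.8, 17.7, 16.9 and 23.4 CPM in the IFNAR knockout. No IFNAR knockout value of Ccne1 reached down to the RelB-DBDB range (log2 difference 0.78 ± 0.17, adjusted p = 0.0466). Ccne2, the related E cyclin, was at 5.33, 4.71, 3.42 and 3.76 CPM in the RelB-DBDB libraries and 9.85, 8.40, 4.19 and 3.502 CPM in the IFNAR knockout. Its IFNAR knockout excess was present in control and at 1 h and not seen at 8 h, where the IFNAR knockout value rests on 13 reads. The log2 difference was 0.41 ± 0.20, adjusted p = 0.267.

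The kinase inhibitors did not move together. Cdkn2c, an inhibitor of Cdk4 and Cdk6, was at 6.09, 3.57, 3.19 and 2.07 CPM in the RelB-DBDB libraries and 13.9, 9.34, 8.74 and 10.2 CPM in the IFNAR knockout. All IFNAR knockout libraries lay above all RelB-DBDB libraries, and the log2 difference was 1.33 ± 0.18, adjusted p = 0.0086. Cdkn1a, an inhibitor of cyclin-dependent kinases induced by p53 and other signals, was at 374, 478, 911 and 843 CPM in the RelB-DBDB libraries and 375, 605, 877 and 699.7 CPM in the IFNAR knockout. The groups overlapped in full (log2 difference 0.01 ± 0.12, adjusted p = 0.980). Cdkn1b, the inhibitor that accumulates in resting cells, was at 47.2, 48.2, 46.8 and 82.00 CPM in the RelB-DBDB libraries and 61.9, 52.97, 51.2 and 64.1 CPM in the IFNAR knockout. The highest value was the 8 h library of RelB-DBDB, and the log2 difference was 0.07 ± 0.14, adjusted p = 0.776. The signs of the small differences of Ccnd2, Cdkn1a and Cdkn1b turned under both other scalings tried. Without either 1 h library that of Cdkn1a was -0.11, and without either control library that of Cdkn1b was -0.03. E2f1, an activator of S phase genes, was at 17.02, 16.1, 12.4 and 12.4 CPM in the RelB-DBDB libraries and 23.5, 22.3, 13.8 and 16.97 CPM in the IFNAR knockout. It was higher in the IFNAR knockout within each condition (log2 difference 0.36 ± 0.13, adjusted p = 0.165). E2f2, a related activator, was at 55.1, 48.9, 9.46 and 1.85 CPM in the RelB-DBDB libraries and 61.9, 73.3, 15.7 and 10.2 CPM in the IFNAR knockout. Differences between conditions exceeded those between genotypes, and the log2 difference by genotype was 0.85 ± 0.28, adjusted p = 0.135. Myc, which promotes growth and entry into the cycle, was at 35.9, 40.6, 37.96 and 29.2 CPM in the RelB-DBDB libraries and 48.01, 49.6, 50.8 and 43.1 CPM in the IFNAR knockout. The lowest IFNAR knockout value of Myc lay above the highest RelB-DBDB value, but the gene did not pass the test over all genes (log2 difference 0.41 ± 0.11, adjusted p = 0.0726).

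Among the 18 S phase genes, the 15 that were called had higher levels in the IFNAR knockout. Rrm2, the regulated subunit of ribonucleotide reductase, was at 8.75, 9.25, 6.16 and 3.65 CPM in the RelB-DBDB libraries and 32.5, 29.3, 28.6 and 25.6 CPM in the IFNAR knockout. Every IFNAR knockout library was well above every RelB-DBDB library, and the log2 difference of 1.98 ± 0.18, adjusted p = 0.00241 was the largest of the 54 genes. Uhrf1, which brings the maintenance methyltransferase to newly copied DNA, was at 16.7, 12.5, 14.1 and 10.3 CPM in the RelB-DBDB libraries and 43.5, 38.1, 32.4 and 41.5 CPM in the IFNAR knockout. The groups did not overlap (log2 difference 1.48 ± 0.16, adjusted p = 0.00366). Cdc6, which loads the helicase at origins, was at 2.57, 3.08, 1.37 and 1.67 CPM in the RelB-DBDB libraries and 11.4, 10.95, 4.01 and 4.58 CPM in the IFNAR knockout. The 3 and 8 h values of the IFNAR knockout were its lowest and still lay above the RelB-DBDB range (log2 difference by genotype 1.37 ± 0.19, adjusted p = 0.00813). Cdt1, its partner in licensing, was at 17.7, 17.7, 4.90 and 6.39 CPM in the RelB-DBDB libraries and 28.97, 22.3, 11.3 and 14.01 CPM in the IFNAR knockout. Here the 3 and 8 h values of the IFNAR knockout lay below the control value of RelB-DBDB, although each condition by itself favoured the IFNAR knockout (log2 difference 0.77 ± 0.17, adjusted p = 0.0447). Gmnn, the inhibitor of Cdt1, was at 15.5, 18.8, 5.24 and 6.29 CPM in the RelB-DBDB libraries and 22.5, 22.5, 10.2 and 10.2 CPM in the IFNAR knockout. It was higher in the IFNAR knockout within each condition and did not pass the test (log2 difference 0.56 ± 0.15, adjusted p = 0.084).

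The MCM genes code for the helicase that opens DNA at the fork, and all of Mcm2 to Mcm7 were called. Mcm2 was at 20.4, 20.3, 14.8 and 12.6 CPM in the RelB-DBDB libraries and 46.2, 44.2, 32.2 and 37.99 CPM in the IFNAR knockout. The lowest IFNAR knockout value was above the highest RelB-DBDB value (log2 difference 1.20 ± 0.13, adjusted p = 0.00387). Mcm5 was at 27.2, 26.6, 27.4 and 18.8 CPM in the RelB-DBDB libraries and 54.2, 55.3, 54.8 and 52.00 CPM in the IFNAR knockout. Its levels spanned a narrow range within the IFNAR knockout, and the log2 difference by genotype was 1.10 ± 0.13, adjusted p = 0.00457. Mcm7 was at 18.9, 21.9, 14.9 and 10.2 CPM in the RelB-DBDB libraries and 40.5, 33.7, 32.4 and 33.9 CPM in the IFNAR knockout. Mcm7 too did not overlap between the genotypes (log2 difference 1.09 ± 0.18, adjusted p = 0.0162). Mcm6 was at 62.2, 55.03, 38.2 and 38.4 CPM in the RelB-DBDB libraries and 102, 89.3, 65.5 and 79.5 CPM in the IFNAR knockout. For Mcm6 the 3 h value of the IFNAR knockout was just above the RelB-DBDB control (log2 difference 0.80 ± 0.11, adjusted p = 0.00789). Mcm3, Mcm4, the helicase cofactors Cdc45 and Gins1, the reductase subunit Rrm1 and the salvage kinase Tk1 were also called, with log2 differences between 0.70 and 1.12 and adjusted p between 0.0113 and 0.0481. Their levels ran from 1.10 to 64.9 CPM in the RelB-DBDB cells and from 3.10 to 94.02 CPM in the IFNAR knockout. Tyms, which makes thymidylate, was at 23.97, 22.1, 32.03 and 36.00 CPM in the RelB-DBDB libraries and 33.2, 32.7, 42.8 and 52.3 CPM in the IFNAR knockout. The genotype difference was small and steady, at 0.48 ± 0.11, adjusted p = 0.0472 on the log2 scale. Pcna, the sliding clamp of the polymerases, was at 139, 144, 127 and 61.6 CPM in the RelB-DBDB libraries and 157, 144, 125 and 80.8 CPM in the IFNAR knockout. In contrast to the helicase genes, Pcna had nearly equal values in the genotypes at 1 and 3 h, and the log2 difference was 0.13 ± 0.11, adjusted p = 0.490. Gins2, another part of the helicase, was at 14.4, 14.1, 9.92 and 7.36 CPM in the RelB-DBDB libraries and 17.4, 16.2, 11.8 and 11.9 CPM in the IFNAR knockout. It did not pass the test (log2 difference 0.33 ± 0.14, adjusted p = 0.241), and 67.3% of its exon bases are shared with Gse1 on the other strand.

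The genes of G2 and mitosis were low in RelB-DBDB, 17 of 22 under 10 CPM in all its libraries, and each was higher in the IFNAR knockout in every condition. Top2a, the topoisomerase that untangles sister chromatids, was at 24.3, 24.5, 20.7 and 19.4 CPM in the RelB-DBDB libraries and 76.3, 77.4, 82.1 and 79.5 CPM in the IFNAR knockout. The values varied little within each genotype and the groups lay far apart, with a log2 difference of 1.79 ± 0.12, adjusted p = 0.00139. Mki67, which coats mitotic chromosomes and is the usual stain for dividing cells, was at 21.02, 24.03, 73.5 and 49.2 CPM in the RelB-DBDB libraries and 86.7, 97.7, 156 and 103 CPM in the IFNAR knockout. The lowest IFNAR knockout library, the control, was above the highest RelB-DBDB library, the 3 h one (log2 difference 1.53 ± 0.20, adjusted p = 0.00692). Ccna2, the cyclin of S phase and G2, was at 6.66, 5.68, 4.10 and 3.44 CPM in the RelB-DBDB libraries and 22.7, 20.6, 20.03 and 15.6 CPM in the IFNAR knockout. The groups did not overlap, with a log2 difference of 1.82 ± 0.15, adjusted p = 0.0016. Ccnb1, a cyclin of mitosis, was at 2.00, 3.57, 1.71 and 0.779 CPM in the RelB-DBDB libraries and 5.68, 5.01, 4.37 and 4.85 CPM in the IFNAR knockout. Counts were low, and the 1 h libraries were the closest pair (log2 difference 1.06 ± 0.23, adjusted p = 0.042). Ccnb2, a second mitotic cyclin, was at 4.95, 4.71, 1.37 and 1.48 CPM in the RelB-DBDB libraries and 12.4, 11.5, 8.92 and 8.35 CPM in the IFNAR knockout. It was under 2 CPM in the RelB-DBDB cells at 3 and 8 h and above 8 CPM in all IFNAR knockout libraries (log2 difference 1.57 ± 0.21, adjusted p = 0.00813). Cdk1, the kinase of the mitotic cyclins, was at 8.27, 7.31, 6.61 and 5.32 CPM in the RelB-DBDB libraries and 13.9, 14.1, 13.3 and 14.01 CPM in the IFNAR knockout. Each genotype held a narrow range, and the log2 difference was 0.93 ± 0.15, adjusted p = 0.0169.

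Kif11, the motor that pushes spindle poles apart, was at 6.66, 6.82, 3.19 and 3.41 CPM in the RelB-DBDB libraries and 13.9, 20.3, 22.2 and 23.98 CPM in the IFNAR knockout. At 3 and 8 h it was below control in RelB-DBDB and above control in the IFNAR knockout, and the mean log2 difference was 1.84 ± 0.28, adjusted p = 0.0127. Cenpf, a kinetochore protein, was at 2.57, 4.22, 1.25 and 2.04 CPM in the RelB-DBDB libraries and 9.60, 9.93, 8.92 and 11.05 CPM in the IFNAR knockout. No RelB-DBDB value reached the IFNAR knockout range (log2 difference 1.69 ± 0.21, adjusted p = 0.00612). Cdc20, the activator of the anaphase-promoting complex, was at 5.90, 5.84, 2.39 and 0.860 CPM in the RelB-DBDB libraries and 15.6, 12.1, 10.6 and 10.51 CPM in the IFNAR knockout. The ratio was largest at 8 h, when RelB-DBDB was under 1 CPM (log2 difference 1.65 ± 0.28, adjusted p = 0.0177). Aurkb, the kinase of the chromosomal passenger complex, was at 5.61, 5.19, 3.76 and 2.31 CPM in the RelB-DBDB libraries and 15.7, 15.03, 14.4 and 12.7 CPM in the IFNAR knockout. Again the groups did not overlap (log2 difference 1.61 ± 0.17, adjusted p = 0.00377). Plk1, a kinase of mitotic entry and exit, was at 3.23, 2.92, 1.82 and 1.16 CPM in the RelB-DBDB libraries and 9.68, 7.47, 8.92 and 5.12 CPM in the IFNAR knockout. The values were low but apart in all conditions, with a log2 difference of 1.44 ± 0.17, adjusted p = 0.00529. Kif23, a motor of cytokinesis, was at 4.85, 7.14, 1.94 and 1.05 CPM in the RelB-DBDB libraries and 12.5, 14.9, 8.01 and 3.502 CPM in the IFNAR knockout. Its 8 h value in the IFNAR knockout, from 13 reads, lay within the RelB-DBDB range (log2 difference 1.23 ± 0.17, adjusted p = 0.00826). Foxm1, the factor that activates mitotic genes, was at 5.33, 6.82, 5.24 and 2.31 CPM in the RelB-DBDB libraries and 10.9, 10.9, 7.10 and 8.89 CPM in the IFNAR knockout. It was higher in the IFNAR knockout in each condition and did not pass the test (log2 difference 0.87 ± 0.22, adjusted p = 0.0683).

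Birc5 of the passenger complex, the checkpoint kinase Bub1, the cytokinesis motor Kif20a, the spindle pole kinase Aurka, the spindle protein Nusap1 and the ubiquitin carrier Ube2c were called as well, with log2 differences between 1.11 and 1.44 and adjusted p between 0.00665 and 0.0183. The checkpoint protein Bub1b, the kinetochore motor Cenpe and the Aurora A partner Tpx2 were not called, with log2 differences between 0.29 and 0.94. Levels of these 9 genes ran from 1.67 to 32.9 CPM in the RelB-DBDB cells and from 6.68 to 39.1 CPM in the IFNAR knockout. Kif20a shares 29.3% of its exon bases with Cdc23, and Ube2c 22.8% with Tnnc2, in each case on the other strand. Between single libraries, the exact 95% interval of the ratio of the IFNAR knockout to RelB-DBDB, which covers counting error only, lay above 1 for 49 of the 54 genes in control, 45 at 1 h, 43 at 3 h and 48 at 8 h. Among all genes tested it lay above 1 for 26.1, 25.2, 17.6 and 46.3% in the same order. It lay below 1 for 1 of the 54 genes in control, at 1 h and at 3 h and for 3 at 8 h, against 17.1, 13.8, 13.7 and 16.0% of all genes tested. For Top2a in control this ratio was 3.15 (95% interval 2.74 to 3.63), and for Mki67 it was 4.12 (95% interval 3.56 to 4.79).

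The count of called genes varied with the libraries in the fit, as did the count over all genes. It was 5 without either of the 3 h libraries, when 1.06% (the IFNAR knockout left out) or 1.05% (RelB-DBDB left out) of all genes tested were called. It was 15 without the IFNAR knockout control and 16 without the RelB-DBDB control, against 2.06% and 2.07% of all genes, and 26 without either 1 h library, against 2.50% (the IFNAR knockout left out) and 2.44% (RelB-DBDB left out). Without either 8 h library it was 43, against 16.5% (the IFNAR knockout left out) and 16.7% (RelB-DBDB left out), and with no filter on low values it was 21, against 2.00%. No called gene of the 54 was lower in the IFNAR knockout under any of these, and Mcm2, Rrm2, Uhrf1, Top2a and Ccna2 were called under every alternative run.

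Markers of several other cell types moved with the genotype as well. The counts of called markers below stand beside 4.59% called higher and 1.66% called lower among all genes tested. The summed level of 10 T and NK cell markers was 24.3 to 32.5 CPM in the RelB-DBDB cells and 129 to 157 CPM in the IFNAR knockout, without overlap, and 7 of its 8 tested genes were higher. Cd3e, a chain of the T cell receptor complex, ranged over 2.05 to 3.25 CPM in the RelB-DBDB cells and 11.8 to 16.2 CPM in the IFNAR knockout, while the NK genes Klrb1c and Ncr1 were under 1 CPM in all libraries. Mast cell and basophil markers (9 genes) summed to 10.02 to 22.1 CPM in the RelB-DBDB cells and 39.6 to 49.3 CPM in the IFNAR knockout, also without overlap, with 6 of 8 tested genes higher and Tpsb2 at 0 throughout RelB-DBDB. The 10 stromal markers summed to 22.8 to 27.4 CPM in the RelB-DBDB cells and 73.7 to 81.2 CPM in the IFNAR knockout, mostly from Thy1, which T cells also express. Of its 4 tested genes 3 were higher, Thy1 (log2 difference 1.64, adjusted p = 0.00139) and the collagen genes Col1a1 (log2 difference 1.26, adjusted p = 0.00824) and Col1a2 (log2 difference 1.62, adjusted p = 0.00361). The 12 progenitor markers summed to 75.7 to 102 CPM in the RelB-DBDB cells and 78.1 to 104 CPM in the IFNAR knockout, with overlap, and 4 of the 10 tested, Mpo, Ctsg, Gata2 and Myb, were higher. Cd34 (log2 difference -0.60, adjusted p = 0.0549), Prtn3 (log2 difference -0.55, adjusted p = 0.369) and Kit (log2 difference -0.28, adjusted p = 0.535) had negative values and were not called. Dendritic cell markers (12 genes) summed to 8766 to 14125 CPM in the RelB-DBDB cells and 13959.5 to 15496 CPM in the IFNAR knockout, with 1 of 12 called, the class II gene H2-Ab1 (log2 difference 0.48, adjusted p = 0.0439). The 11 macrophage and monocyte markers summed to 1149.8 to 1664 CPM in the RelB-DBDB cells and 1324 to 1768 CPM in the IFNAR knockout. Of these C1qb, C1qc, Ly6c2 and Ccr2 were higher, with log2 differences of 0.97, 1.01, 0.97 and 1.14, and Mertk was lower (log2 difference -2.11, adjusted p = 0.0016). The 10 neutrophil markers summed to 185 to 296 CPM in the RelB-DBDB cells and 215 to 278 CPM in the IFNAR knockout, and the only one called, Mmp8, was lower (log2 difference -2.94, adjusted p = 0.00139). The 10 B cell markers summed to 9.73 to 13.3 CPM in the RelB-DBDB cells and 10.01 to 14.8 CPM in the IFNAR knockout, where Ms4a1 alone of the 6 tested had an unadjusted p under 0.05 (log2 difference 0.47, adjusted p = 0.152), and the 9 erythroid markers to 0.457 to 2.76 CPM in the RelB-DBDB cells and 3.74 to 5.10 CPM in the IFNAR knockout, with 8 of the erythroid genes under 1 CPM in all libraries, among them Hba-a1, Hba-a2 and Car1, which were at 0. The part of these cells in the genotype difference of the cell cycle genes was not tested.

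**Figure D2:**
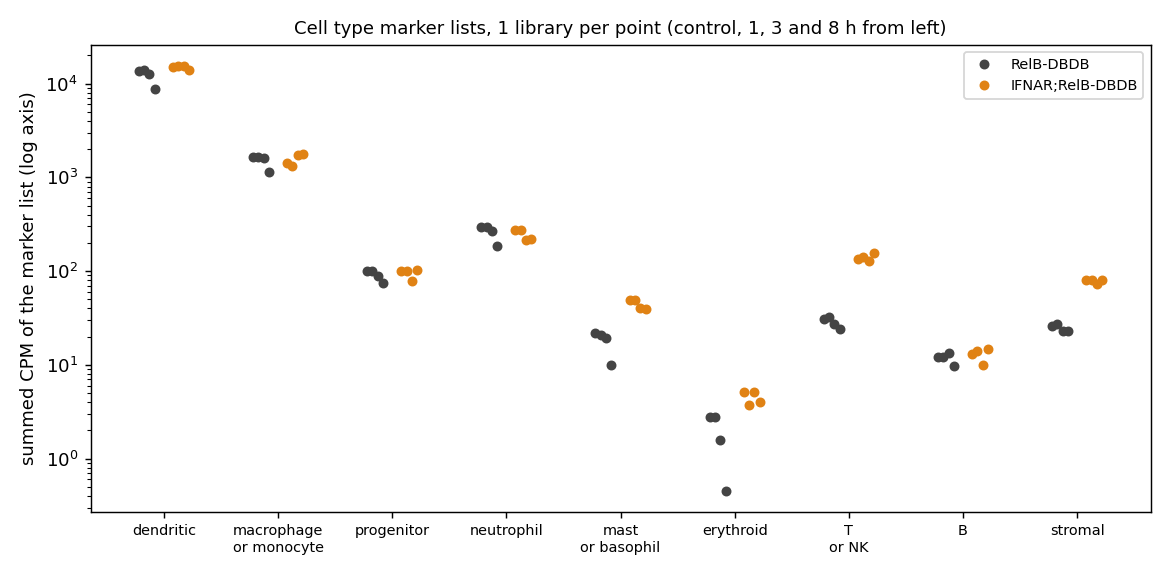
Each point is the summed CPM (log axis) of 1 marker list in 1 library, with the 4 conditions of a genotype from left to right. The T or NK, mast or basophil, stromal and erythroid lists lie higher in every IFNAR;RelB-DBDB library, and the 8 h library of RelB-DBDB is the lowest of its genotype for dendritic markers, at 8766 CPM.

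Setting S phase against G2 and mitosis, the mitotic genes took a larger place beside the replication genes in the IFNAR knockout than in RelB-DBDB in each of the 4 conditions. The 18 S phase genes summed to 525, 519, 444 and 323 CPM in the RelB-DBDB cells and to 829.9, 781, 676 and 682 CPM in the IFNAR knockout. The ratio of the IFNAR knockout to RelB-DBDB was 1.58, 1.51, 1.52 and 2.11, with the largest gap at 8 h. The 22 G2 and mitosis genes summed to 176, 189, 193 and 154 CPM in the RelB-DBDB cells and to 444, 448, 498 and 421 CPM in the IFNAR knockout. Their ratio was 2.52, 2.36, 2.58 and 2.73, higher than that of S phase in every condition. The log2 ratio of the mitotic to the S phase sum was -1.57, -1.45, -1.20 and -1.07 in RelB-DBDB and -0.90, -0.80, -0.44 and -0.70 in the IFNAR knockout, and no value of one genotype fell in the range of the other. The mean shift between genotypes was 0.61 on the log2 scale. It was 0.37 when the mean log2 level of each list was used, which gives the abundant Mki67, Top2a and Pcna less weight. By condition, the median difference of log2(CPM + 1) was 0.70, 0.72, 0.92 and 1.08 for S phase and 1.19, 0.96, 1.53 and 1.67 for G2 and mitosis, against 0.06, 0.07, 0.02 and 0.30 for all genes tested. In the wider lists of 43 other S phase and 54 other mitotic genes, chosen as an alternative after seeing the data, the shift was 0.03, 0.13, 0.23 and 0.12 by condition, with a mean of 0.13. These lists were described and not tested against each other.

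**Figure D3:**
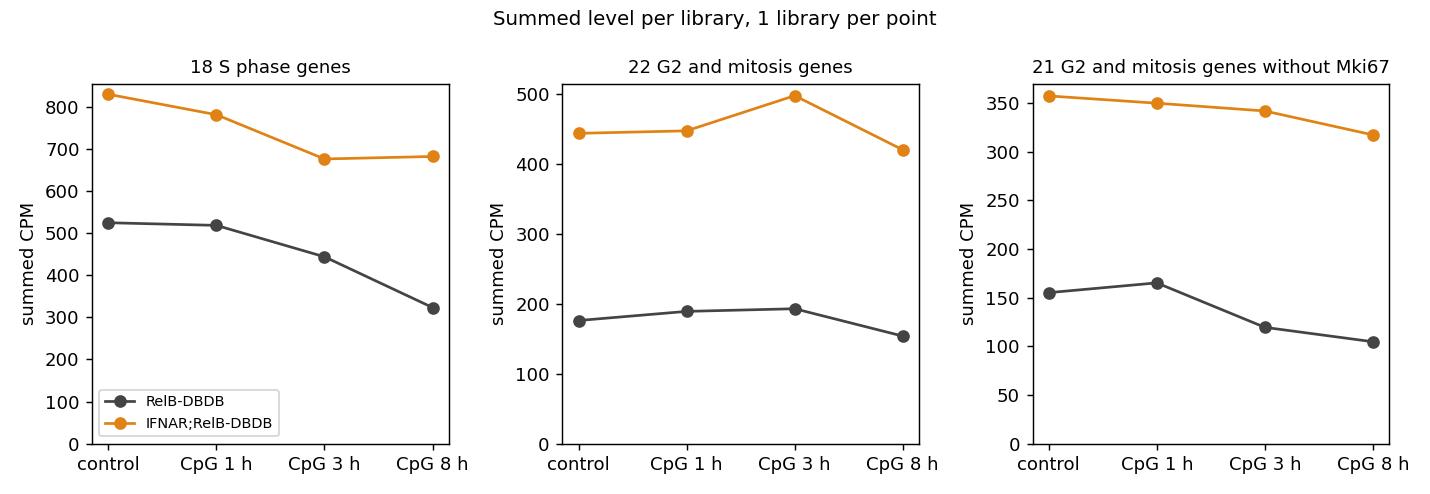
Summed CPM of the S phase genes, the G2 and mitosis genes, and the latter without Mki67, with 1 point per library and axes that start at 0. The IFNAR;RelB-DBDB line is above the RelB-DBDB line in all panels, and the rise of the mitotic sum at 3 h is absent once Mki67 is left out.

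The course of the mitotic sum depended on Mki67. From control to 3 h the sum with Mki67 was multiplied by 1.10 in RelB-DBDB and 1.12 in the IFNAR knockout. Without Mki67 the factors were 0.770 and 0.957, under 1 in both. The sums without Mki67 were 155, 165, 119.6 and 105 CPM in the RelB-DBDB cells and 357, 349.9, 342 and 317 CPM in the IFNAR knockout. From control to 8 h the S phase sum was multiplied by 0.616 in RelB-DBDB and 0.822 in the IFNAR knockout, and the mitotic sum without Mki67 by 0.675 and 0.888. Both sums thus kept more of their control level in the IFNAR knockout at 8 h, where the RelB-DBDB library also had the raised mitochondrial share, whose part was not tested. All genes tested leaned the same way at 8 h, with a median log2 change of -0.36 in RelB-DBDB and -0.12 in the IFNAR knockout. The part of this general shift in the gap between the sums was not tested.

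The second comparison follows the cells after CpG. At 1 h the cell cycle genes were near their control levels, with 0 of 54 called by limma, against 0.0651% of all genes tested. Cdkn1a alone had an unadjusted p under 0.05, and limma with voom weights on the worked-back reads called 0 as well. Median log2 changes were -0.08 for G1 control, -0.04 for S phase and 0.05 for G2 and mitosis, against -0.01 for all genes tested. Cdkn1a went from 374 to 478 CPM in the RelB-DBDB cells and from 375 to 605 CPM in the IFNAR knockout (log2 change 0.52 ± 0.17, adjusted p = 1.000).

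At 3 h the D cyclin Ccnd2, its kinase Cdk6, the inhibitor Cdkn1a and Mki67 rose, while the licensing factor Cdt1, its inhibitor Gmnn, the activator E2f2 and the helicase gene Mcm6 fell. These 8 of 54 genes, 4 higher and 4 lower, compare with 7.51% called, 3.64% higher and 3.87% lower among all genes tested. The median log2 change was -0.44 for G1 control, -0.39 for S phase and -0.32 for G2 and mitosis, against -0.16 for all genes tested. Of the 54 genes, 41 were lower than control in both genotypes, against 54.8% of all genes tested. Cdkn1a reached 911 CPM in the RelB-DBDB cells and 877 CPM in the IFNAR knockout, each over 2 times its control (log2 change 1.25 ± 0.17, adjusted p = 0.00765). Ccnd2 rose by a log2 change of 0.78 ± 0.13, adjusted p = 0.0151, and the genotypes gave nearly the same ratio to control, 1.71 in RelB-DBDB and 1.73 in the IFNAR knockout. Cdk6 rose by 0.89 ± 0.17, adjusted p = 0.0248, to over 300 CPM in both genotypes. Mki67 rose by 1.30 ± 0.28, adjusted p = 0.0373, with a ratio to control of 3.498 (95% interval 3.00 to 4.09) in RelB-DBDB and 1.80 (95% interval 1.64 to 1.97) in the IFNAR knockout. Mki67 was the only gene of G2 and mitosis called at 3 h, and 19 of the 22 had a negative change.

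E2f2 showed the largest fall at 3 h, to 9.46 CPM in the RelB-DBDB cells and 15.7 CPM in the IFNAR knockout, from control values over 50 CPM (log2 change -2.17 ± 0.40, adjusted p = 0.0221). Its relative E2f1 had a log2 change of -0.57 ± 0.19, adjusted p = 0.116 and was not called. Cdt1 fell to 4.90 CPM in the RelB-DBDB cells and 11.3 CPM in the IFNAR knockout (log2 change -1.47 ± 0.24, adjusted p = 0.0152). Gmnn fell with it, to 5.24 and 10.2 CPM in the same order (log2 change -1.24 ± 0.22, adjusted p = 0.0189). Mcm6 fell by a smaller amount (-0.66 ± 0.15, adjusted p = 0.0453 on the log2 scale), and the other helicase genes Mcm2, Mcm3, Mcm4, Mcm5 and Mcm7 were not called, with changes from -0.47 to 0.15. Cdc6 was at 4.01 CPM in the IFNAR knockout against 11.4 CPM in control, but did not pass the test (log2 change -0.95 ± 0.26, adjusted p = 0.0788). The count at 3 h was 0 without any single one of the 3 h or control libraries, when 0.0981% to 1.03% of all genes tested were called, 5 without the 1 h library of the IFNAR knockout, 4 without that of RelB-DBDB, and 26 (6 higher, 20 lower) without either 8 h library. Those 26 compare with 35.2% of all genes without the 8 h library of the IFNAR knockout and 35.2% without that of RelB-DBDB, and the 5 and 4 with 4.15% and 4.09%. With no filter on low values 2 were called, against 2.31% of all genes.

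At 8 h Ccnd2 was higher and E2f2 lower than at 3 h, and the clamp Pcna, the motor Kif23 and the cyclin Ccnd3 were called lower than control. Kif23 and Ccnd3 were already below control in both genotypes at 3 h, without being called. In limma's test the step from 3 to 8 h was not called for E2f2 (log2 change -1.22, adjusted p = 0.186). Nor was it for Kif23 (-0.76, adjusted p = 0.174) or Ccnd3 (-0.42, adjusted p = 0.365). In all 13 of 54 genes were called, 4 higher (Ccnd2, Cdkn1a, Cdk6 and Tyms, 7.41%) and 9 lower (16.7%). Among all genes tested 21.6% were called, 6.51% higher and 15.1% lower, so both shares were near the background. The median log2 change was -0.33 for G1 control, -0.49 for S phase and -0.54 for G2 and mitosis, against -0.23 for all genes tested. Lower than control in both genotypes were 36 of 54 genes, against 50.7% of all genes tested. Ccnd2 reached 2990.3 CPM in the RelB-DBDB cells and 3075 CPM in the IFNAR knockout, close to 3 times control in each (log2 change 1.56 ± 0.13, adjusted p = 0.000681). Between 3 and 8 h it rose further (log2 change 0.78 ± 0.13, adjusted p = 0.0357), the 1 call of that step among the 54 genes, against 1.71% of all genes tested, 0.634% higher and 1.07% lower. Ccnd3 went the other way, to 21.8 CPM in the RelB-DBDB cells and 64.7 CPM in the IFNAR knockout (log2 change -1.01 ± 0.23, adjusted p = 0.0253). The change of Ccnd3 was smaller, -0.62, without the 8 h library of RelB-DBDB, when 8 h rests on 1 library. Cdk2 also fell (-0.79 ± 0.23, adjusted p = 0.0461), more in RelB-DBDB, where it was at 17.7 CPM, than in the IFNAR knockout at 37.7 CPM, and its change was -0.44 without that RelB-DBDB library. Cdkn1a and Cdk6 stayed above control, with log2 changes of 1.03 ± 0.17, adjusted p = 0.00746 and 0.58 ± 0.17, adjusted p = 0.0489. For Cdk6 the change was 0.36 without the 8 h library of the IFNAR knockout and 0.39 without the control of the IFNAR knockout. Like all calls at 8 h except those of Ccnd2 and E2f2, the call of Cdk6 did not hold in every alternative run. Gins2, Plk1 and Cdk2 lost their calls in more of these runs than Cdk6 did. Tyms rose (0.60 ± 0.15, adjusted p = 0.0341) and on this scale was the only one of the 18 S phase genes with a positive change.

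E2f2 was at 1.85 CPM in the RelB-DBDB cells and 10.2 CPM in the IFNAR knockout at 8 h, which is 0.0337 (95% interval 0.0258 to 0.0433) and 0.165 (95% interval 0.116 to 0.229) of control (log2 change -3.39 ± 0.40, adjusted p = 0.00256). The E2F word and CCAAT of its promoter stand within 50 bases of the start site shown above. Pcna was near control to 3 h and fell by 8 h, to 61.6 CPM in the RelB-DBDB cells and 80.8 CPM in the IFNAR knockout (log2 change from control -1.06 ± 0.15, adjusted p = 0.00525). Its step from 3 to 8 h just missed the threshold (log2 change -0.83 ± 0.15, adjusted p = 0.0508). Kif23 fell to 1.05 and 3.502 CPM in the same order (log2 change -1.55 ± 0.24, adjusted p = 0.00638). Cdt1 and Gmnn stayed low, with log2 changes of -1.17 ± 0.24, adjusted p = 0.0177 and -1.12 ± 0.22, adjusted p = 0.0142. Plk1 (-0.89 ± 0.25, adjusted p = 0.0431) and Gins2 (-0.70 ± 0.20, adjusted p = 0.0499) were called near the threshold. Top2a and Nusap1, in contrast, had changes of -0.13 ± 0.17, adjusted p = 0.601 and -0.11 ± 0.20, adjusted p = 0.703. Of the genes called at 3 h, Ccnd2, Cdk6 and Cdkn1a were called higher and Cdt1, E2f2 and Gmnn lower at 8 h too. Mki67 was at 49.2 CPM in the RelB-DBDB cells and 103 CPM in the IFNAR knockout, under its 3 h values, and was not called (log2 change 0.72 ± 0.28, adjusted p = 0.102). The count at 8 h was 2 without either control library, when 2.72% to 5.09% of all genes tested were called, 8 without either 1 h library, against 13.4% to 13.5%, and 7 without either 3 h library, against 10.6% to 10.7%. It was 38 without the 8 h library of the IFNAR knockout, against 57.7% of all genes, and 16 without that of RelB-DBDB, against 26.3%. It was 8 with no filter on low values, against 7.87%, and 21 with voom weights, against 35.1%. Ccnd2 and E2f2 were called under every alternative run. The step from 3 to 8 h gave 17 calls without the 8 h library of the IFNAR knockout, against 41.0% of all genes, 2 without that of RelB-DBDB, against 8.33%, and 0 without any other library.

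**Figure D4:**
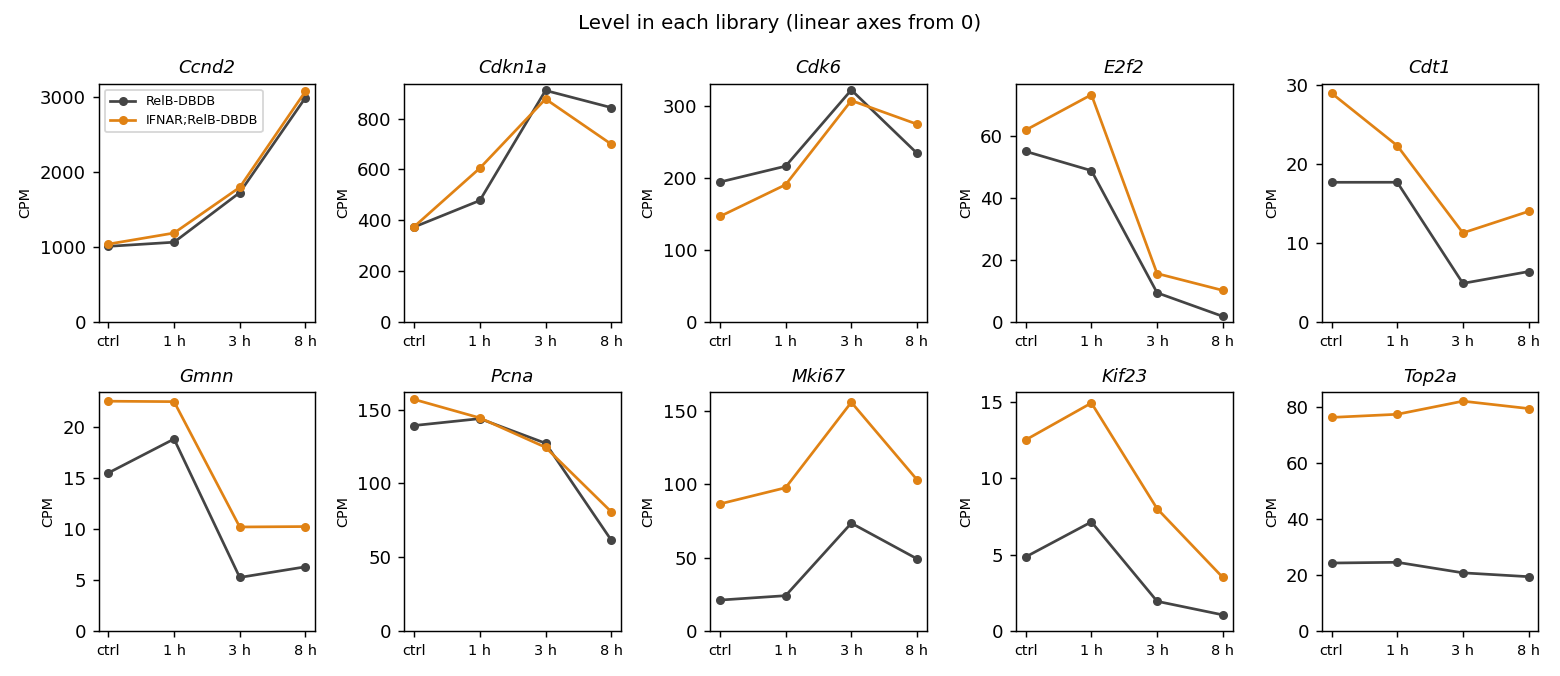
Level in CPM of 10 genes in each library, with time after CpG on the x axis, linear y axes from 0 and 1 library per point. Ccnd2 climbs to 2990.3 CPM in the RelB-DBDB cells and 3075 CPM in IFNAR;RelB-DBDB, E2f2, Cdt1 and Gmnn drop between 1 and 3 h, Pcna drops after 3 h, and Top2a stays level at separate heights.

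Scaling moved the centre of all genes. With TMM factors the median change of all genes went from -0.23 to -0.00279 at 8 h, and the median by genotype from 0.11 to -0.00543. The split of all calls at 8 h went from 801 higher and 1853 lower to 1211 and 1130, that at 3 h from 448 and 476 to 573 and 388, and that by genotype from 565 and 204 to 454 and 322. Relative to all genes, the median change at 8 h under TMM factors was -0.08 for G1 control, -0.27 for S phase and -0.36 for G2 and mitosis. At 3 h these values were -0.28, -0.23 and -0.16 in the same order, and by genotype 0.27, 0.80 and 1.22. With these factors 6 of the 54 genes were called lower at 8 h, in place of 9, and 4 were called higher as before.

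The third comparison asks whether the genotypes parted further late in the response, at 3 and 8 h against control and 1 h. The mitotic genes leaned that way, with a median log2 difference of differences of 0.44 against 0.20 for S phase, 0.25 for G1 control and 0.09 for all genes tested. No gene of the 54 passed limma's test, nor did any of all genes tested (0%), and limma with voom weights also called 0. The genes with an unadjusted p under 0.05 were Kif11, Cdc20, Ccnb2, Bub1b and Ube2c with a positive and Mki67 with a negative value. The share of all genes tested at that unadjusted threshold was not worked out, so these names carry no comparison with the background. Kif11 went from 6.66 to 3.41 CPM between control and 8 h in the RelB-DBDB cells and from 13.9 to 23.98 CPM in the IFNAR knockout (difference of differences 1.28 ± 0.32, adjusted p = 0.639). Mki67 had a larger ratio of 3 h to control in RelB-DBDB, which started lower (difference of differences -0.92 ± 0.20, adjusted p = 0.530). Ccnd1 went from 29.96 to 46.5 CPM in the RelB-DBDB cells and from 43.1 to 20.7 CPM in the IFNAR knockout between control and 8 h, opposite directions that did not pass the test (-0.91 ± 0.42, adjusted p = 0.639). The test has 2 residual degrees of freedom. Without the 3 h library of the IFNAR knockout it called 27 of the 54 genes, against 46.2% of all genes tested, and without that of RelB-DBDB 30, against 46.1%. Without either 8 h library it called 2, against 5.88% to 6.14% of all genes, and without any other library 0, against 0.566% to 0.573%.

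**Figure D5:**
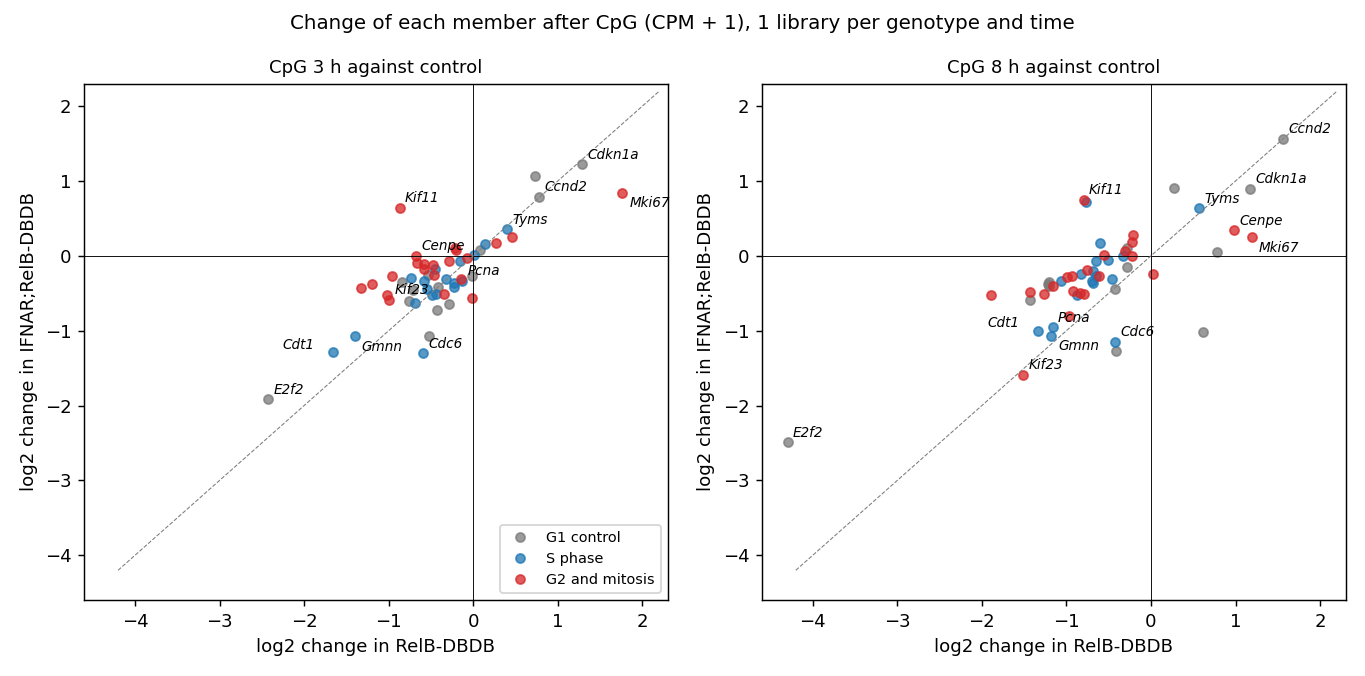
Each point is 1 gene, with its log2 change of CPM + 1 against control in RelB-DBDB on the x axis and in IFNAR;RelB-DBDB on the y axis, at 3 h (left) and 8 h (right). The dashed line marks equal changes, and most points at 8 h lie left of 0 and above the line, with median changes of -0.68 in RelB-DBDB and -0.28 in IFNAR;RelB-DBDB, against -0.36 and -0.12 for all genes tested.

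Genes of the same pathways outside the 54 mostly had differences of the same sign, positive in 41 of 43 S phase genes and 53 of 54 mitotic genes. Among all 12297 genes tested, 8125 were positive. With TMM factors the positive counts were 36 of 43, 51 of 54 and 6064 of 12297 in the same order. Of 43 other S phase genes, 15 were called by genotype, all higher, with a median log2 difference of 0.65. Among all genes tested 4.59% were called higher, and the median was 0.11. The largest were E2f7, a repressor of E2F targets (1.49 ± 0.16, adjusted p = 0.00366), the fork protein Clspn (1.33 ± 0.15, adjusted p = 0.004), Cdca7 (1.31 ± 0.19, adjusted p = 0.0107), Dtl, which targets Cdt1 for breakdown (1.23 ± 0.15, adjusted p = 0.00529), and Mcm10 (1.15 ± 0.16, adjusted p = 0.00914). E2f7 was at 1.33, 0.812, 1.25 and 0.806 CPM in the RelB-DBDB libraries and 5.43, 4.84, 4.37 and 4.31 CPM in the IFNAR knockout. It was near 1 CPM in the RelB-DBDB cells and above 4 CPM in the IFNAR knockout. Of 54 other genes of G2 and mitosis, 36 were called, all higher, with a median of 0.97, against the same 4.59% and 0.11. Espl1, the protease that cuts cohesin, was at 2.09, 1.79, 2.28 and 1.505 CPM in the RelB-DBDB libraries and 7.85, 9.51, 11.5 and 8.89 CPM in the IFNAR knockout. The groups did not overlap (log2 difference 1.84 ± 0.16, adjusted p = 0.002). The next largest were the condensin subunit Ncaph (1.64 ± 0.23, adjusted p = 0.00898), the cytokinesis kinase Cit (1.58 ± 0.17, adjusted p = 0.00366), Fam64a (1.49 ± 0.19, adjusted p = 0.00706) and the chromosome motor Kif22 (1.43 ± 0.18, adjusted p = 0.00635). The promoters of these wider lists held an E2F word in 12 of 32 S phase and 4 of 45 mitotic genes, and the CHR word in 5 of 32 and 28 of 45.

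After CpG these other genes were called no more often than all genes tested. At 3 h 1.85% of the mitotic and 0% of the S phase genes were called lower, against 3.87% of all genes tested. At 8 h 11.1% and 4.65% were called lower, against 15.1%, and 1.85% and 0% higher, against 6.51%. The single genes below are thus not a trait of these lists. At 3 h the only call among both lists was Racgap1, the partner of Kif23 in the central spindle, at 29.3, 29.1, 10.6 and 5.16 CPM in the RelB-DBDB libraries and 52.1, 48.5, 26.8 and 14.5 CPM in the IFNAR knockout. Racgap1 was below control at 3 h (log2 change -1.16 ± 0.22, adjusted p = 0.0242) and at 8 h (-2.04 ± 0.22, adjusted p = 0.0018). Its 8 h value was under its 3 h value in each genotype, but the step from 3 to 8 h was not called. Kif23 also fell between control and 8 h in each genotype. At 8 h the 6 mitotic genes called lower included Cenpa, the histone of centromeres, at 99.7, 77.9, 44.1 and 8.92 CPM in the RelB-DBDB libraries and 81.2, 70.9, 38.4 and 27.7 CPM in the IFNAR knockout. Cenpa fell in both genotypes, to the lowest value in the 8 h library of RelB-DBDB (log2 change -2.43 ± 0.43, adjusted p = 0.0104). The others with the largest falls were the kinetochore protein Spc24 (-1.33 ± 0.28, adjusted p = 0.0199), the phosphatase Cdc25b (-1.21 ± 0.32, adjusted p = 0.0386) and Cdca3 (-1.04 ± 0.22, adjusted p = 0.0193). The condensin subunit Smc4 rose (0.54 ± 0.15, adjusted p = 0.0425), and among S phase genes the clamp loader subunit Rfc5 (-0.89 ± 0.19, adjusted p = 0.0193) and the histone chaperone subunit Chaf1a (-0.89 ± 0.20, adjusted p = 0.0241) fell. Median changes at 8 h of the wider lists, -0.23 for S phase and -0.23 for mitosis, lay beside -0.23 for all genes tested.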

How the data were processed

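The deposited table holds expression signal that the authors scaled as CPM plus 1, as tested on the values: after subtracting 1, every value was a whole number of reads within 0.01 read. Per the submitters' processing notes the genome was mm10 and the tools included cutadapt and edgeR. For the aligner, the counter and whether it used strand, the answer was not given in the sources used here. Per the labels' protocols, libraries were made with a stranded mRNA kit and read as single ends of 50 bases. All 8 libraries were used, and 16 other columns of per-sample values were not. The 2161 of 27178 entries without a gene name held 0.0737% to 0.131% of reads and were left out of the tests, and 11 names stood on more than 1 entry.

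Log2(CPM + 1) was fitted with limma 3.58.1 (R 4.3.3; trended variance) on genotype and condition, leaving 3 residual degrees of freedom, over 12297 genes with at least 1 CPM in 2 libraries. The late difference was a genotype by time term with 2 residual degrees of freedom. Errors of log2 values are standard errors, and p-values were adjusted by Benjamini-Hochberg over all genes tested, with a threshold of 0.05. Ratios between single libraries have exact Poisson 95% intervals, which, like the 3-read floors, cover counting error only. The fit was tested on simulated data with independent libraries, the same spread for all genes and no effect of condition. Such data check the code and do not bear on the calls reported here. Coordinates and exon lengths came from GENCODE M21 (mm10), matched for 54 of 54 genes, with Python 3.11.15 and matplotlib 3.10.9.

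Values in every library are given for a fixed set of genes and for genes called in any comparison (the 10 with the largest change where more than 10 were called in 1 direction). Of other lists, at most 5 called genes per list, direction and comparison are named. The genes and lists were chosen with earlier results of these data known. Alternatives covered pseudocount, filter, scaling, voom weights and each library left out.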

Additional observations from a re-analysis of the deposited data

How the results depend on the processing

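The count of genes called by genotype was 33 to 36 under TMM or median-ratio factors, other pseudocounts (0.25 and 5 CPM), a filter of 50 reads and voom weights, and all were higher in the IFNAR knockout. With no filter on low values it was 21, at 3 h 2 in place of 8, at 8 h 8 in place of 13 and from 3 to 8 h 0 in place of 1. With voom weights the count at 8 h was 21. From 3 to 8 h TMM factors, median-ratio factors and voom weights each gave 2. As each library was left out, counts ranged from 5 to 43 by genotype, 0 to 26 at 3 h, 2 to 38 at 8 h, 0 to 17 from 3 to 8 h and 0 to 30 for the late genotype difference. They were 0 at 1 h throughout. The median genotype difference of S phase genes was 0.65 with a pseudocount of 5 CPM and 0.65 in the other S phase genes, and ranged from 0.77 to 0.94 with a library left out. For G2 and mitosis the values were 0.84, 0.97 and 1.23 to 1.47. The shift of the mitotic against the S phase sum was 0.37 from mean log2 levels and 0.13 in the other genes of both phases, and ranged from 0.57 to 0.69 with a library left out. Signs turned only for genes with small genotype differences that were not called. Under TMM and median-ratio factors these were -0.0563 and -0.0608 for Ccnd2, -0.125 and -0.129 for Cdkn1a, and -0.0555 and -0.0599 for Cdkn1b. Median-ratio factors gave -0.000815 for Pcna, and voom weights 0.00353 for Ccnd1. With a library left out the range was -0.211 to 0.334 for Ccnd1, -0.106 to 0.0970 for Cdkn1a and -0.0307 to 0.215 for Cdkn1b. Where a value changed, the cause was not tested. The planned quasi-likelihood count test was not run, since the deposited values are CPM plus 1 and not counts. Whole reads could be worked back from these values, and the voom fit on those reads was chosen in its place after seeing the data. No paired analysis was possible because each genotype and condition has 1 library, so no replicate numbers pair libraries, and the fit already compares the genotypes within conditions. With 3 residual degrees of freedom, a p that misses the threshold does not show equal levels, and depth limits genes under the 3-read floor of the shallowest library.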

Other observations

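Of 39 other regulators of the cell cycle, 37 were tested, and the median log2 difference of the 39 by genotype was 0.05, beside the 0.11 of all genes tested. By genotype Cks1b, a partner of cyclin-dependent kinases that also stands in the list of other mitotic genes, was higher (1.07 ± 0.22, adjusted p = 0.038), as was Btg2, an antiproliferative factor (0.77 ± 0.10, adjusted p = 0.00704). At 3 h Mnt, an antagonist of Myc, fell (-1.57 ± 0.18, adjusted p = 0.00499). Mnt was at 135, 139.6, 40.01 and 48.2 CPM in the RelB-DBDB libraries and 121, 121, 44.6 and 63.6 CPM in the IFNAR knockout. In both genotypes the 3 h value was the lowest. Tob1, an antiproliferative relative of Btg2, and Rbl2, a retinoblastoma family member of the DREAM complex, also fell at 3 h (-1.06 ± 0.17, adjusted p = 0.0141, and -0.59 ± 0.13, adjusted p = 0.0441). At 8 h Gadd45a, a growth arrest and stress response gene, fell (-1.54 ± 0.42, adjusted p = 0.0422) and its relative Gadd45b rose (0.58 ± 0.17, adjusted p = 0.0484). Mdm2, which targets p53 for breakdown, rose at 8 h (0.57 ± 0.16, adjusted p = 0.0448), while Mnt (-1.19 ± 0.18, adjusted p = 0.00627) and Tob1 (-1.01 ± 0.17, adjusted p = 0.00846) were still lower. The median change of the 39 regulators was -0.20 at 3 h and -0.07 at 8 h, against -0.16 and -0.23 for all genes tested.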
